A study of Mus musculus with 9 samples.

Results

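The genes Kdm6a, Kdm6b and Ezh2 encode enzymes that set the methylation of lysine 27 of histone H3, and their own chromatin is described here in 3 mouse pancreatic cancer cell lines. Kdm6a was the gene removed in the series, which was about its role in pancreatic cancer. H3K4me3, H3K27ac and H3K27me3 were mapped by ChIP-seq, in which DNA bound by an antibody to the mark is sequenced, in a female KDM6A-KO line (F-KO), a male KDM6A-KO line (M-KO) and a male KDM6A-WT line (WT), with 1 library for each mark and line. All lines came from pancreas of mice of a mixed C57BL/6-SV129 background, were grown in F12/DMEM with EGF and received no treatment. The allele, the Cre driver, the tumour model and the age of the mice were not given in the labels. There was no female WT line and no replicate, so each value below is that of 1 library, each comparison is between libraries and not between genotypes, and no p-value was computed.

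The regions described are those in the deposited lists that overlap a gene with about 30 kb on either side, on mouse build mm9. The windows were chromosome X from 17710000 to 17890000 for Kdm6a, chromosome 11 from 69180000 to 69260000 for Kdm6b and chromosome 6 from 47450000 to 47575000 for Ezh2. They held 45 of the 185632 regions in the 9 lists, of which 8 lay in the window of Kdm6a, 25 in that of Kdm6b and 12 in that of Ezh2. By mark, 15 were H3K4me3, 26 were H3K27ac and 4 were H3K27me3 regions. No mm9 annotation was used, so the gene interval is the window with 30 kb taken off each side, 120, 20 and 65 kb long. The lengths in RefSeq's gene table, which is of another assembly, GRCm38.p6, are 119, 21.9 and 65 kb. Distances below are counted from the 5′ end of that interval and are approximate for this reason. A region is a stretch in which the authors' caller found more reads than background, and its level is its read count per kb.

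EZH2 is the catalytic subunit of Polycomb repressive complex 2, which adds the methyl groups of H3K27me3, a mark of silenced genes. KDM6A, also called UTX, and KDM6B, also called JMJD3, are demethylases that take them off again. KDM6A also belongs to the MLL3 and MLL4 complexes, which mark enhancers, and its gene is known to escape X inactivation in mouse and human, whereas KDM6B is known in mouse macrophages as a demethylase induced by inflammatory signals. H3K4me3 is found at active or poised promoters, and H3K27ac, which occupies the same lysine as H3K27me3, at active promoters and enhancers.

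The bases just before a transcript's start are shown for Kdm6a and Ezh2, the 2 of 3 genes matched in RefSeq's promoter table, because the strongest H3K4me3 of each window lay at that end of the gene. They are from GRCm38.p6, chrX:18162325-18162574 on the plus strand and chr6:47595031-47595280 on the minus strand, so these positions cannot be set against the mm9 positions used elsewhere. Capitals mark matches, on either strand, to a GC box, a CCAAT box or an E-box.
Kdm6a: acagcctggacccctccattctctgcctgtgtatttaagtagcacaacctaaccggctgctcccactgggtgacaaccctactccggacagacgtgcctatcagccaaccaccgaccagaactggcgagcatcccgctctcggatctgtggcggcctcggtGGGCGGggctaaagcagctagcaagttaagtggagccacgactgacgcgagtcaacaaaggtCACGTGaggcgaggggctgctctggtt
Ezh2: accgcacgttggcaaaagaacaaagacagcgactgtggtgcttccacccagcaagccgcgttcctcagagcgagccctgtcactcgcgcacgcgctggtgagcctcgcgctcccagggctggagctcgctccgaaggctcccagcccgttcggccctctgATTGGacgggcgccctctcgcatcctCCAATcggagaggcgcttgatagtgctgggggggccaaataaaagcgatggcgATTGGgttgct
The Kdm6a sequence held 1 GC box, spelled GGGCGG, a motif in 32.7% of the 32851 promoters of the table over the same 250 bases. It also held 1 E-box, spelled CACGTG, found in 6.02% of them. The Ezh2 sequence held 3 boxes with the letters CCAAT, which 33.8% of the promoters hold at least once. No TATA box (TATAAA, in 12.4% of promoters) and no E2F motif (TTTGGCGC or TTTCCCGC, in 1.3%) was found in either sequence. Both had more CpG than the median of 6 over the table. Kdm6a had 15, with 72.7% of promoters lower, and Ezh2 had 23, with 86.7% lower. Their GC content was 59.6% and 63.6%, against a median of 52.4%, with 72.1 and 80% of promoters lower.

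The libraries had between 2396174 and 18507923 reads in regions, and both extremes were H3K27me3 libraries, with the highest sum in F-KO cells and the lowest in WT. The lists also differed in length, with H3K27me3 regions over 13.3% of the autosomes in F-KO cells and 9.61% in M-KO cells, against 5.85% in WT. On X these values were 9.61, 0.186 and 0.085%. In comparisons of level, all H3K4me3 regions means those joined over the 3 lists that have a part held by all 3 lists of the mark. They number 12057 for H3K4me3 and 10607 for H3K27ac. Before scaling, the median log2 ratio to WT over all H3K4me3 regions was 0.06 for H3K4me3 and 0.76 for H3K27ac in F-KO cells, and -0.53 and 1.13 in M-KO cells. Levels were therefore compared after taking off that median, and intervals are 95% exact intervals that cover counting error only. Each count was spread evenly over its region, so a level over a part held by all lists is the mean of the whole regions there. It therefore depends on the width called in each list. A lost or gained copy of a chromosome segment was not tested, since no control library was used here. The lists hold enriched regions and no reads over exons, so they do not check the deletion of Kdm6a.

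All 3 genes carried H3K4me3 and H3K27ac at the promoter in all 3 lines, the 2 KO lines included. Of the 5 merged H3K4me3 regions in the windows, obtained by joining the 3 lists, 4 were held by all 3 lists, against 65% of all merged H3K4me3 regions. None was in both KO lists and not WT, where the share over all merged regions is 3.2%. The other was in WT and neither KO, a pattern of 8.42% of all merged regions. No promoter ratio of a KO line to WT passed 2-fold in either direction after scaling. Over all H3K4me3 regions, 3.85% passed 2-fold for H3K4me3 in F-KO cells and 3.79% in M-KO cells, and for H3K27ac 4.21 and 2.18%.

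**Figure D1:**
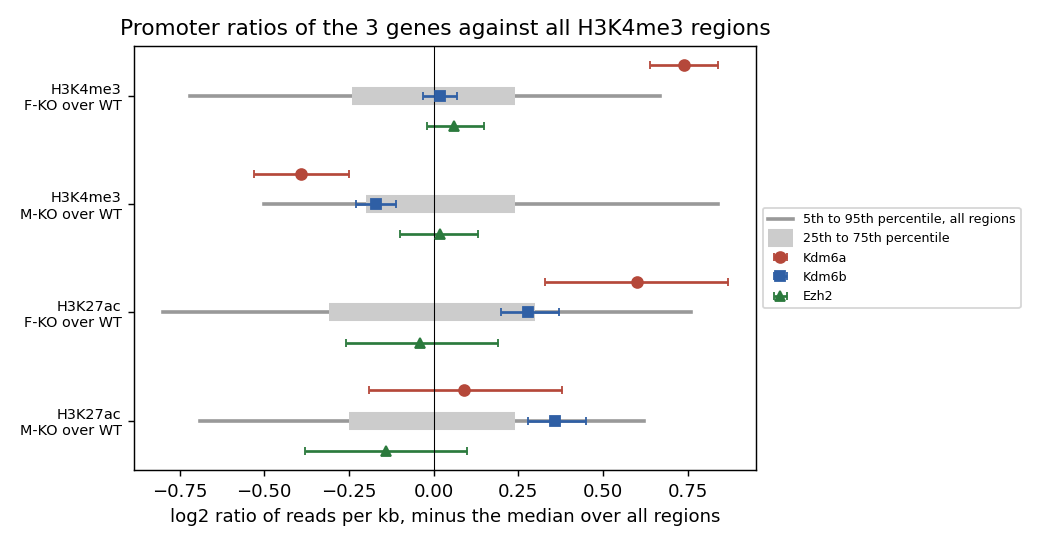
Log2 ratio of reads per kb in each KO line over WT at the promoter regions of Kdm6a, Kdm6b and Ezh2, minus the median over all H3K4me3 regions. The region of Kdm6b spans the whole gene interval. Error bars are 95% counting intervals, and grey bars span the middle of all 12057 (H3K4me3) or 10607 (H3K27ac) regions. Kdm6a lies right of the median in F-KO cells and left of it in M-KO cells for H3K4me3, and Ezh2 lies near 0 in all 4 ratios.

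Kdm6a, the gene removed in both KO lines, carried H3K4me3 at its 5′ end in both of them. The region spanned chromosome X from 17737601 to 17745000 in F-KO cells, with 2444 reads over 7.4 kb. In M-KO cells it spanned 17737801 to 17744200, with 641 reads over 6.4 kb, and in WT 17737601 to 17744600, with 1329 reads over 7 kb. The borders thus lay within 1 kb of each other, while the mean level of the region was 330 reads per kb in F-KO cells and 100 in M-KO cells, against 190 in WT.

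After scaling, H3K4me3 at Kdm6a was 1.67-fold the WT level in F-KO cells, a log2 ratio of 0.74 (0.64 to 0.84). Of all 12057 regions, 96.2% had a lower ratio, and of the 426 regions on X, 97.2%. The median log2 ratio of the X regions was 0.01, so the high value was not shared by most of X. In M-KO cells the level was 0.763-fold that of WT, a log2 ratio of -0.39 (-0.53 to -0.25), with 9.49% of all regions lower. There the median of X regions was -0.15, and 24.9% of X regions were lower than Kdm6a. The direction at Kdm6a thus differed between the KO lines. With lists scaled by their summed counts the ratios were 0.47 and -0.14. That scaling shifts M-KO ratios by 0.26, about as far as the interval's upper end of -0.25 lies from 0. The M-KO direction is therefore not clear of counting error under it. The KO lines differ in sex, and the WT library is shared by both ratios.

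H3K27ac at the Kdm6a promoter covered 7.8 kb with 816 reads in F-KO cells and 4.6 kb with 437 reads in M-KO cells, against 3.4 kb with 139 reads in WT. The scaled log2 ratio was 0.6 (0.33 to 0.87) in F-KO cells, but -0.27 when lists were scaled by their summed counts. It was 0.09 (-0.19 to 0.38) in M-KO cells, where the counting interval includes 0, and -0.25 when scaled by summed counts. The acetylated stretch was thus longest in F-KO cells and shortest in WT, as were H3K27ac lists as a whole on X, at 1.77, 1.27 and 1.09% of the chromosome.

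Another, smaller H3K27ac region lay inside the gene, 9.6 kb or more from the 5′ end, in both KO lines and not in WT. It ran from 17749601 to 17753200 with 102 reads in F-KO cells and from 17751201 to 17753000 with 58 reads in M-KO cells. Both were weak, with only 10.6 and 9.26% of the regions in their lists at a lower level. Scaled to WT, their 28.3 and 32.2 reads per kb would be 16.7 and 14.7, and 5.24 and 1.66% of the WT H3K27ac regions have a level below those. So weak a region lies near the lower end of what the WT list holds, and the part of depth in its absence from WT was not tested.

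No H3K27me3 region lay in the 180 kb around Kdm6a in any line. Among the 272 windows of that length on X that hold H3K4me3 in WT, 19.5% had no H3K27me3 in any list. In F-KO cells, whose H3K27me3 list covers much more of X than those of the male lines, the nearest regions lay 4500 kb away on the 5′ side and 1776 kb away on the 3′ side. They bound a stretch of 6.4 Mb without the mark, which ranked 3 by length among the 1964 gaps between H3K27me3 regions on X in that list, where the median gap is 5.8 kb. A position falls in a long gap more often than in a short one, so the rank does not measure how rare this is. Over all 924 windows of 180 kb on X the median H3K27me3 length in F-KO cells was 0 kb. Over the 272 with H3K4me3 in WT it was 25.4 kb. The 6.4 Mb stretch held 8 H3K4me3 and 30 H3K27ac regions of the same line. In M-KO cells and WT the gap was 22.5 and 23 Mb, with few H3K27me3 regions on X at all (74 and 48). Besides Kdm6a, 5 H3K4me3 regions held by all lists lay within the 6.4 Mb. Their scaled log2 ratios ran from -0.41 to 0.54 in F-KO cells, with a median of -0.03, and from -0.73 to 0 in M-KO cells, with a median of -0.55. The 0.74 of Kdm6a in F-KO cells was above all 5, and its -0.39 in M-KO cells lay within their range, above 4 of the 5.

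**Figure D2:**
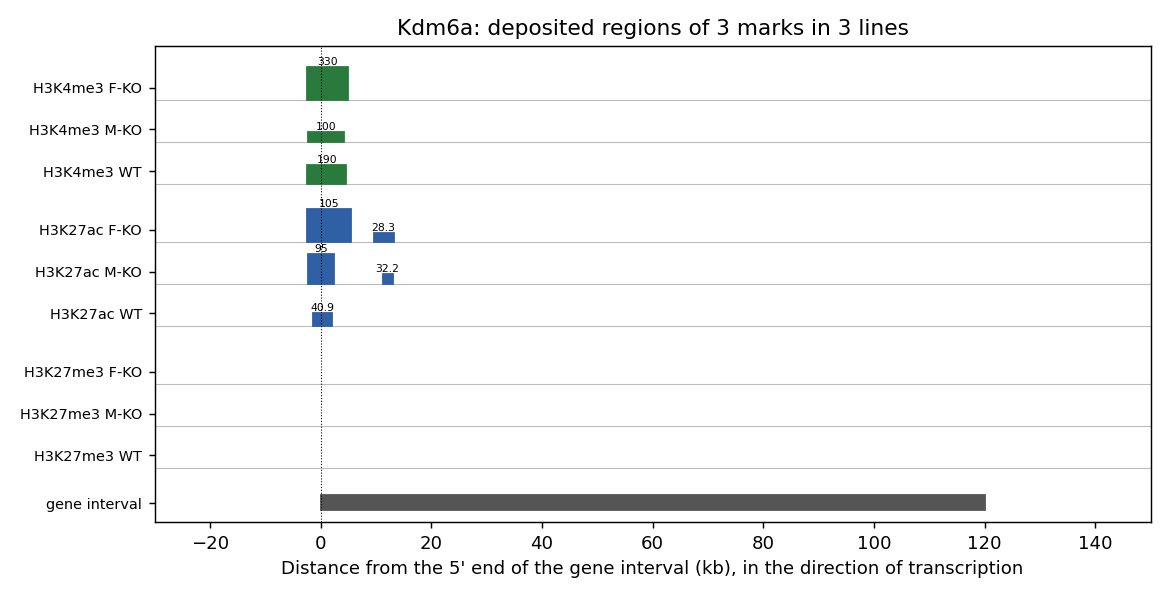
Deposited regions around Kdm6a by mark and line, along the distance in kb from the 5′ end of the gene interval. Bar height and the number on each bar give reads per kb, with heights scaled to the highest region of the mark. H3K4me3 and H3K27ac sit at the 5′ end in all 3 lines, a weak H3K27ac region follows in both KO lines, and the H3K27me3 rows are empty.

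Kdm6b had the broadest H3K4me3 of the 3 genes, and H3K27me3 in both KO lists and not in WT just beyond its 5′ end. In F-KO cells 1 H3K4me3 region covered the gene interval in full, chromosome 11 positions 69207201 to 69238000, and held 8572 reads over 30.8 kb. M-KO cells had a gap in the gene, between a region of 17.2 kb with 2804 reads over the 5′ end and a region of 5.8 kb with 909 reads at the 3′ end. WT had the same layout, with 18 kb and 5017 reads at the 5′ end and 5.2 kb and 1104 reads at the 3′ end. In the gene table, Tmem88 and Naa38 lie close to the 3′ end of Kdm6b, and which promoter the 3′ region marks was not tested.

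By width, the Kdm6b region ranked 41 of 14056 in the F-KO list, 29 of 16908 in the M-KO list and 85 of 15975 in WT. It was thus among the broadest H3K4me3 regions of each line. The mean level of the regions over the parts held by all 3 lists was 278 reads per kb in F-KO cells and 162 in M-KO cells, against 263 in WT. These parts include the 3′ end of the gene. The 3′ regions of M-KO cells and WT had 157 and 212 reads per kb, and the 5′ regions 163 and 279. Scaled, that is 1.01-fold and 0.887-fold the WT level, log2 ratios of 0.02 (-0.03 to 0.07) and -0.17 (-0.23 to -0.11). With lists scaled by their summed counts both changed sign, to -0.25 and 0.08.

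H3K27ac lay over the same span. It covered 35.8 kb with 4038 reads in F-KO cells and 28.2 kb with 4335 reads in M-KO cells, each as 1 region from 69207401. WT had a region of 18.2 kb with 1190 reads at the 5′ end and one of 9 kb with 298 reads at the 3′ end. Scaled to all H3K4me3 regions, the level was 1.22-fold that of WT in F-KO cells and 1.29-fold in M-KO cells, log2 ratios of 0.28 (0.2 to 0.37) and 0.36 (0.28 to 0.45). Over all regions 74.2 and 84.3% had lower ratios. Over this whole span both KO lines were higher than WT beyond counting error, but with lists scaled by their summed counts the ratios were -0.58 and 0.02. The WT level of 54.7 reads per kb averages its 5′ region, at 65.4, with its 3′ region, at 33.1. Each KO list has 1 region over both ends, at 113 in F-KO cells and 154 in M-KO cells. A ratio for the 5′ end alone is therefore not resolved. The shift between the scalings is the same for every promoter of a library, so the rank of Kdm6b among them does not depend on it.

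In the window as a whole, H3K27ac covered 70.8 kb in F-KO cells and 51.4 kb in M-KO cells, against 38.2 kb in WT. In no window did both KO lines reach 2-fold the WT length, though within the gene interval of Kdm6a, without the flanks, both did, at 9 and 4.2 kb against 2 kb in WT. Of 9415 autosomal windows of 80 kb with H3K4me3 in WT, 18.3% reached it in both KO lines, and the shares were 18.6% at the 125 kb of the Ezh2 window and 15.4% on X at the 180 kb of the Kdm6a window. Of the 9 merged H3K27ac regions in the 3 windows, 6 were in all lists, against 44.6% of all merged H3K27ac regions, and 2 were held by both KO lists but not by WT, against 9.69%. They were the region inside Kdm6a described above and a region outside Kdm6b on its 3′ side, from 69189001 to 69200600. The Kdm6b region had 335 reads in F-KO cells and 323 in M-KO cells. Scaled to WT its level would be 19 and 20.5 reads per kb, above 12.1 and 17.2% of the WT regions.

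The 4 H3K27me3 regions of the 3 windows all lay on the 5′ side of Kdm6b. In F-KO cells they ran from 69233401 to 69253000, with 1163 reads over 19.6 kb, and from 69259001 to 69281200, with 850 reads over 22.2 kb, which passes the window's edge. In M-KO cells they ran from 69234001 to 69238200, with 89 reads over 4.2 kb, and from 69246201 to 69251000, with 99 reads over 4.8 kb. WT had none in the window, and its nearest region on this side began 97.6 kb from the gene interval. In both KO lines the mark began close to the gene, 3.4 kb from the interval in F-KO cells and 4 kb in M-KO cells, and none lay over the interval itself. In the gene table the nearest protein-coding neighbour on this side is Dnah2, which encodes a dynein heavy chain of cilia and flagella.

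**Figure D3:**
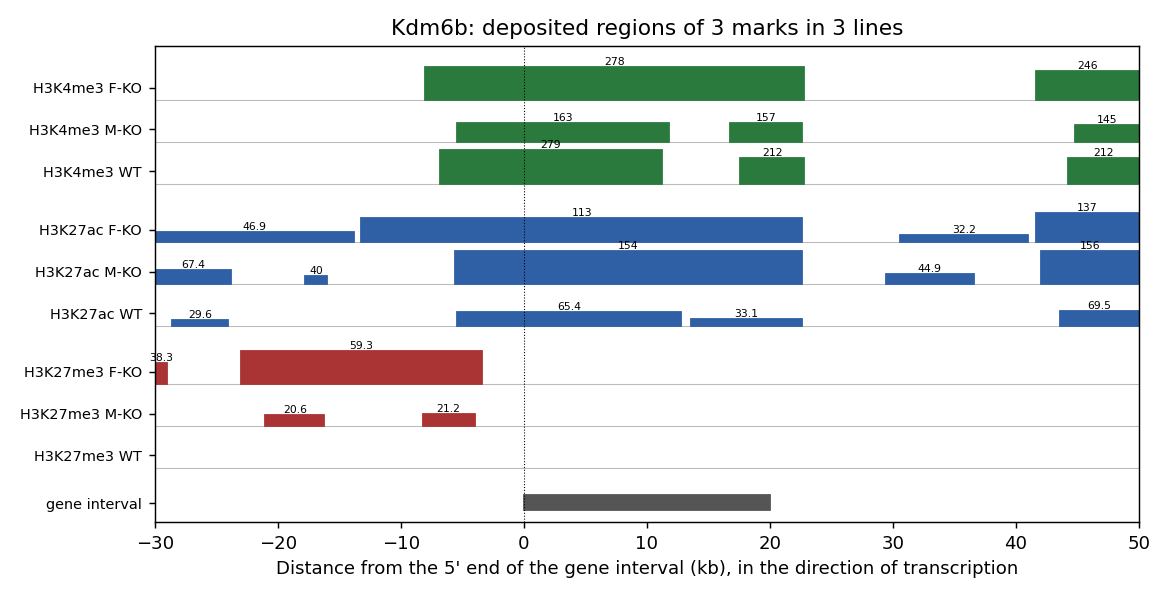
Deposited regions around Kdm6b by mark and line, along the distance in kb from the 5′ end of the gene interval, with negative values outside the gene on its 5′ side. Bar height and the number on each bar give reads per kb, with heights scaled to the highest region of the mark. H3K27me3 appears left of the gene at 59.3 and 38.3 reads per kb in F-KO cells and at 21.2 and 20.6 in M-KO cells, and is absent from the WT row.

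The 2 merged H3K27me3 regions were thus held by both KO lists but not by WT, a pattern of 9.7% of all merged H3K27me3 regions, but M-KO covered only 2.2 kb of the farther one, outside the window. Their count says little beyond that, since both belong to the surroundings of 1 gene and WT had the list with the fewest reads. Of 9415 windows of 80 kb with H3K4me3 in WT, 19.4% had at least 2-fold the WT length in both KO lines, where any length counts if WT has none. Of 12061 H3K4me3 regions held by all lists, 68.4% met no H3K27me3 in any list, as at Kdm6a and Ezh2, and 5.54% overlapped H3K27me3 in both KO lists and not in WT, and Kdm6b was 1 of them. Of the 48 at least as wide as that of Kdm6b, 2 did, Kdm6b included.

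KO levels at H3K27me3 regions of all lists were a median of 2.79-fold those of WT in F-KO cells and 1.21-fold in M-KO cells. Scaled by this, the F-KO region next to the gene would have 21.3 reads per kb in WT, which is above 94.1% of the WT regions, and the farther one 13.7, above 34.5%. The M-KO regions would have 17.5 and 17 reads per kb, above 77.4 and 73.8% of the WT regions. The WT list thus holds regions of those levels and below elsewhere. H3K27me3 reads in regions numbered 18507923 in F-KO cells and 4811961 in M-KO cells, against 2396174 in WT, and the part of this in the absence from WT was not tested further.

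Along part of this side H3K27me3 lay on H3K27ac and H3K4me3 of the same line. In F-KO cells, 20 kb of the 20.6 kb of H3K27me3 in the window was also in an H3K27ac region and 4.6 kb in an H3K4me3 region. In M-KO cells, 3.2 of 9 kb was in an H3K27ac region and 1.4 kb in an H3K4me3 region. Over the genome, H3K27ac of the same line covered 6.29% of the H3K27me3 length in F-KO cells and 1.87% in M-KO cells, against 0.293% in WT. But H3K27ac covered 98% of the 30 kb on this side of the gene in F-KO cells and 45.3% in M-KO cells. In F-KO cells nearly any region there would overlap it, and in M-KO cells 3.2 of 9 kb is a smaller share than that. In F-KO cells 9.8 kb of the shared length lay in the H3K27ac region that also covers the gene, at 113 reads per kb, and 10.2 kb in the region from 69243801 to 69275000, at 46.9. In M-KO cells 1.6 kb lay in the region over the gene, at 154 reads per kb, and 1.6 kb in a separate region at 40. Since a count is spread evenly over its region, the H3K27ac level within the shared stretch itself is not resolved. Whether the marks lie on the same chromosomes or in different cells cannot be told apart in lists of this kind.

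At the Ezh2 promoter no ratio of a KO line to WT differed from the median promoter beyond counting error. H3K4me3 covered 8.8 kb with 2803 reads in F-KO cells, on chromosome 6 from 47540401 to 47549200, and 4.6 kb with 942 reads in M-KO cells, against 6.4 kb with 1874 reads in WT. The mean levels of these whole regions were 319 and 205 reads per kb in the KO lines and 293 in WT. Scaled, the log2 ratios were 0.06 (-0.02 to 0.15) in F-KO cells and 0.02 (-0.1 to 0.13) in M-KO cells. For H3K27ac, with 983 reads over 11.6 kb and 550 over 5.4 kb in the KO lines and 195 over 3.8 kb in WT, they were -0.04 (-0.26 to 0.19) and -0.14 (-0.38 to 0.1). The widths called differ between the lists, and the part of width in these ratios was not tested. All 4 counting intervals include 0, and together they span -0.38 to 0.19 on the log2 scale. With lists scaled by their summed counts the ratios in F-KO and M-KO cells were -0.21 and 0.27 for H3K4me3 and -0.9 and -0.48 for H3K27ac.

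Inside the gene Ezh2 carried an H3K27ac region in every line, 25.6 kb or more from the 5′ end. It spanned 20.4 kb with 705 reads in F-KO cells and 5 kb with 268 reads in M-KO cells, against 12.4 kb with 395 reads in WT. Its levels were 34.6 and 53.6 reads per kb in the KO lines and 31.9 in WT, below those at the promoter in each line. WT alone also had an H3K4me3 region there, from 47509201 to 47511600, with 80 reads. At 33.3 reads per kb it was weak, and scaled to the KO lists its level would be above only 5.66% of the F-KO regions and 4.16% of the M-KO regions.

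A further H3K27ac region lay at the 3′ end of Ezh2, where the gene table has Cul1, which encodes a scaffold of ubiquitin ligases, as the neighbour. It covered 18.8 kb with 597 reads in F-KO cells and 10.8 kb with 236 reads in WT, and was absent from the M-KO list. Scaled to the M-KO list, the levels of these lines would be 41 and 47.7 reads per kb, above 25.5 and 37.9% of the M-KO regions. In all, H3K27ac covered 50.8 kb of the window in F-KO cells and 10.4 kb in M-KO cells, against 27 kb in WT. The KO lines lay on opposite sides of WT in this length, so the order did not go by genotype.

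H3K27me3 was absent from the 125 kb around Ezh2 in all lines. Among 7513 autosomal windows of that length with H3K4me3 in WT, 31.9% had none in any list. The gap without the mark was 0.698 Mb in F-KO cells, 5.8 Mb in M-KO cells and 0.699 Mb in WT. In the 5.8 Mb of M-KO cells, from 42275601 to 48071200, the other lists held 9 regions each, over 75.4 kb in F-KO cells and 26.4 kb in WT. The 20 H3K4me3 regions of all lists within it had a median scaled log2 ratio of -0.01 in M-KO cells, close to that of all regions.

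**Figure D4:**
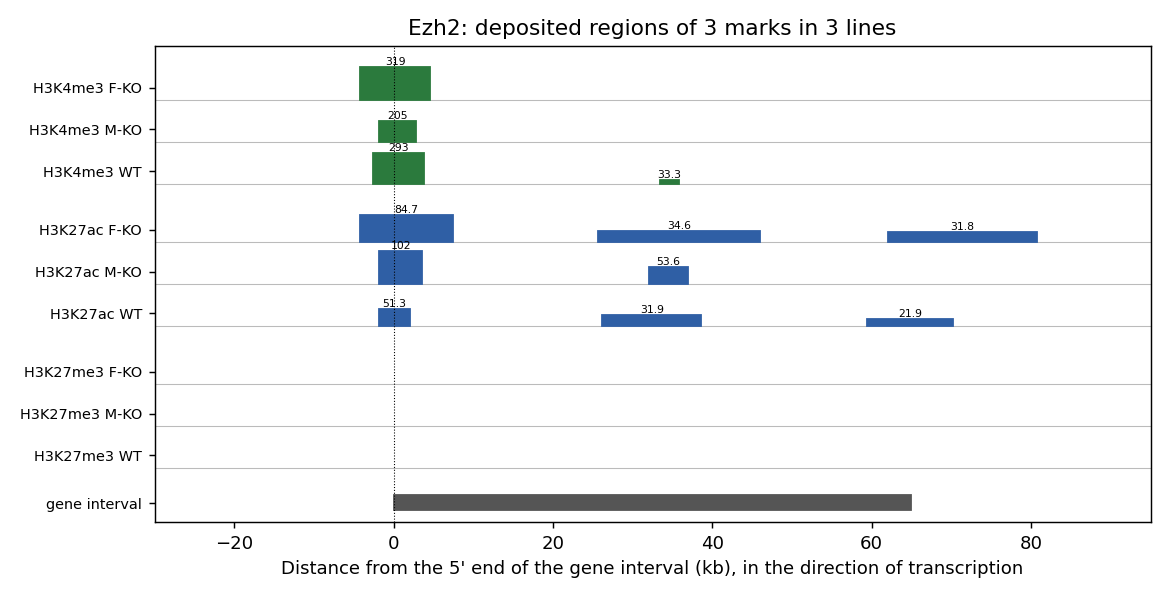
Deposited regions around Ezh2 by mark and line, along the distance in kb from the 5′ end of the gene interval. Bar height and the number on each bar give reads per kb, with heights scaled to the highest region of the mark. The promoter carries H3K4me3 and H3K27ac in all 3 lines, H3K27ac follows inside the gene, and the H3K27me3 rows are empty.

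Within a library, the genes were ordered by H3K4me3 level per kb at the promoter. In F-KO cells Kdm6a had 330 reads per kb (317 to 344), Ezh2 319 (307 to 331) and Kdm6b 278 (272 to 284), and the first pair do not differ beyond counting error. In M-KO cells the order was Ezh2 with 205 (192 to 218), Kdm6b with 162 (156 to 167) and Kdm6a with 100 (92.6 to 108). In WT it was again Ezh2 with 293 (280 to 306), Kdm6b with 263 (257 to 270) and Kdm6a with 190 (180 to 200). The Kdm6b levels include the 3′ end of the gene. Its 5′ region alone had 279 reads per kb in WT, and whether that differs from Ezh2 beyond counting error was not tested. Ezh2 and Kdm6b were above 91.6% or more of the 12057 H3K4me3 regions with a part held by all 3 lists, in each library. Kdm6a was above 98.3% of these in F-KO cells, but above 42.2% in M-KO cells and 70.9% in WT. Among all regions of its own list, the Kdm6a region was above 98.5% in F-KO cells, 56% in M-KO cells and 77% in WT.

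For H3K27ac, Kdm6b was the highest of the genes in each line, with 113 reads per kb (109 to 116) in F-KO cells, 154 (149 to 158) in M-KO cells and 54.7 (52 to 57.6) in WT. Kdm6a had 105 (97.6 to 112), 95 (86.3 to 104) and 40.9 (34.4 to 48.3), and Ezh2 had 84.7 (79.5 to 90.2), 102 (93.5 to 111) and 51.3 (44.4 to 59). The intervals of Ezh2 and Kdm6b overlap in WT, those of Ezh2 and Kdm6a in M-KO cells and in WT, and those of Kdm6a and Kdm6b in F-KO cells. Among the 10607 H3K4me3 regions with a part held by all 3 H3K27ac lists, Kdm6b was above 94.9% in F-KO cells, 97.4% in M-KO cells and 89.6% in WT.

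**Figure D5:**
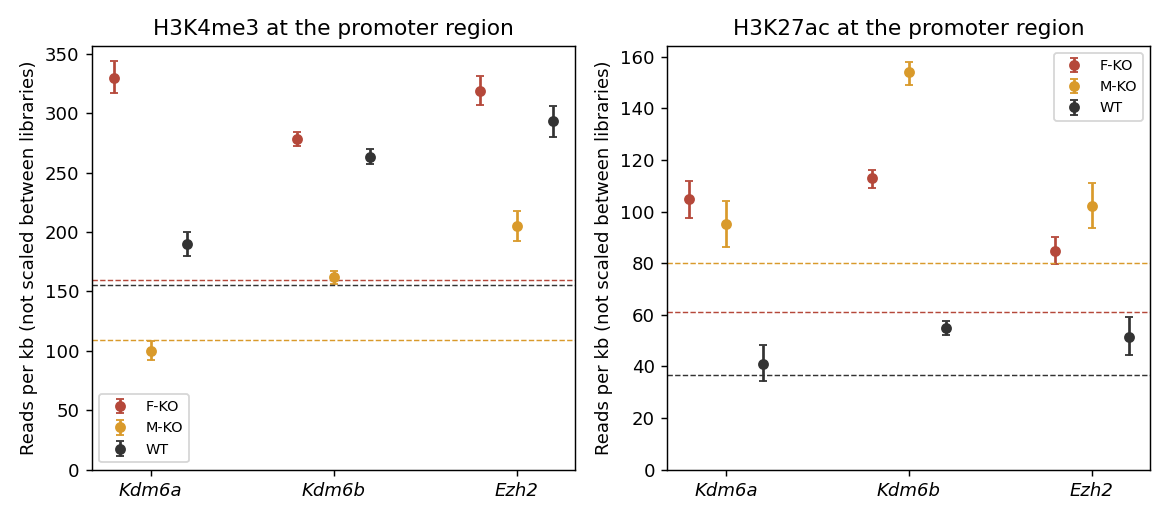
Reads per kb of H3K4me3 (left) and H3K27ac (right) at the promoter regions of the 3 genes in the F-KO, M-KO and WT cells. Values are mean levels of the whole regions over the part held by all 3 lists. For Kdm6b that part includes the 3′ end of the gene. Points are single libraries, not scaled between libraries, with 95% counting intervals. Dashed lines give the median in each library over the H3K4me3 regions with a part held by all 3 lists of the mark, 12057 for H3K4me3 and 10607 for H3K27ac. All points lie above the dashed line of their library except H3K4me3 of Kdm6a in M-KO cells, at 100 reads per kb against a median of 109.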

How the data were processed

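The authors' deposited lists, 1 per library, give a chromosome, a start, an end and a whole number per region, read here as a read count. With no header in the files, that reading rests on the values. The tools were Bowtie 1.1.2 and SICER 1 and the build mm9, per the submitters' processing notes. No source used here names a control library, a threshold or the sequencing depth. Borders lie on a grid of 200 bp, and positions are 1-based.

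Lists were turned into bins of 200 bp with each region's count spread evenly over its length, and the regions of all lists of a mark were joined where they touch (Python 3.11.15, numpy 2.4.6, pandas 2.3.3, scipy 1.17.1, matplotlib 3.10.9). Because of the even spreading, a peak within a broad region is not resolved. A level over bins held by all lists is the mean of the whole regions that hold them, so it varies with their widths. The promoter region of a gene is the merged H3K4me3 region at the 5′ end of its interval. For Kdm6b that region is 30.8 kb long and spans the whole interval, so its promoter values average the 3′ end of the gene with the 5′ end. The direction of Kdm6a and Ezh2 comes from RefSeq's promoter table and that of Kdm6b from general knowledge. Ratios use bins held by all 3 lists, minus the median log2 ratio. Counting intervals are Poisson or Clopper-Pearson at 95% and treat reads as independent. Recomputed lengths were set against 95% Wilson intervals that treat bins of 200 bp as independent, which they are not. Windows of equal length were laid end to end along the autosomes or X, and overlap means at least 1 bp. The code was tested on simulated lists. Genes of Polycomb and MLL complexes that the plan named, and genes with a similar pattern, could not be placed on mm9 and are not analysed here, nor are marker genes of the pancreas. Every region in the 3 windows was reported or counted. The members, lists and alternatives were chosen with earlier results of these data known.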

Additional observations from a re-analysis of the deposited data

Results flagged for a closer look

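H3K4me3 at the Kdm6a promoter moved in opposite directions in the KO lines relative to the same WT library, with a scaled log2 ratio of 0.74 in F-KO cells and -0.39 in M-KO cells. Neither counting interval includes 0 with median scaling. With lists scaled by their summed counts the M-KO ratio was -0.14, which is not clear of counting error. The difference between the lines was not tested, since each has 1 library. F-KO and WT cells are of different sex and genotype, which cannot be told apart here. With the median of X regions in place of that of all regions the ratios were 0.73 and -0.24, an alternative chosen after seeing the data.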

How the results depend on the processing

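No paired analysis was possible because each mark and line had 1 library. Of 88 recomputed values, 39 were counted as fixed or nearly fixed by construction and say nothing about stability. These were the ratios from each list's own regions, since counts are spread evenly, the joining of H3K27me3 regions closer than 1 kb, since none in the windows are that close, and H3K27me3 lengths already at 0. Of the other 49, 23 stayed within the interval of the first value or within 1.5 times the first count. That interval was a counting interval for ratios and a Wilson interval over bins for lengths, which does not cover counting error. With depth-scaled H3K27me3 lists, added after seeing the data, the lengths at Kdm6b stayed 20.6 kb in F-KO cells and 9 kb in M-KO cells. That setting only drops whole regions with a scaled level below 11 reads per kb and cannot shorten one. The lowest Kdm6b region had 13.7, so these values, counted among the 23, say little about stability. Scaling by the summed count of the lists moved all 12 promoter ratios by a shift common to all regions of a library, of -0.27 for H3K4me3 and -0.86 for H3K27ac in F-KO cells and 0.26 and -0.34 in M-KO cells. For H3K4me3 the log2 ratios became 0.47, -0.25 and -0.21 in F-KO cells and -0.14, 0.08 and 0.27 in M-KO cells for Kdm6a, Kdm6b and Ezh2. For H3K27ac they became -0.27, -0.58 and -0.9 in F-KO cells and -0.25, 0.02 and -0.48 in M-KO cells. The sign of the H3K27ac ratio of Kdm6a in both KO lines and of Kdm6b in F-KO cells thus depends on the scaling, as does that of H3K4me3 at Kdm6b in both KO lines and at Ezh2 in F-KO cells. With the median of X regions, added after seeing the data, the H3K4me3 ratio of Kdm6a in M-KO cells was -0.24.

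Without the flanks, H3K27me3 at Kdm6b was 0 kb in both KO lines, since all of it lies on the 5′ side. H3K27ac then covered 9 kb at Kdm6a in F-KO cells and 4.2 kb in M-KO cells, against 2 kb in WT, so that both KO lines passed 2-fold there. At Kdm6b it covered 20 kb in each KO line and 19.2 kb in WT, and at Ezh2 30.8 kb in F-KO cells and 8.6 kb in M-KO cells, against 20 kb in WT. Restricted to regions of at least the median count, H3K27ac in F-KO cells covered 7.8 kb at Kdm6a and 60.4 kb at Kdm6b. When a list had to cover 50% of a merged region, the number of H3K27me3 regions in both KO lists without WT was 0, because the M-KO list covers less of both, and 2 H3K27ac regions were in all lists. The WT H3K27me3 list rests on the fewest reads in regions, 2396174.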

Other observations

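The window of Kdm6b also holds the edge of another H3K4me3 region on its 3′ side, from 69176801 to 69188400, in all lists. It had 2810 reads over 11.4 kb in F-KO cells and 1071 reads over 7.4 kb in M-KO cells, against 1905 reads over 9 kb in WT. H3K27ac lay over it in all lines, with 2029 reads over 14.8 kb and 2219 reads over 14.2 kb in the KO lines and 751 reads over 10.8 kb in WT. By level, this H3K27ac region was above 99.4% of the regions in the F-KO list, 99.1% in the M-KO list and 98.9% in WT. Farther out on the 5′ side, beyond the H3K27me3 next to the gene, H3K27ac was present in all lines, with 539 reads over 8 kb in M-KO cells and 136 reads over 4.6 kb in WT.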
